A study of Mus musculus with 24 samples.

Results

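The respiratory chain was examined through 67 nuclear genes of its protein subunits, out of 30701 mouse genes with a level on the arrays. A gene was a member if its symbol starts with Ndufa, Ndufb, Ndufc, Ndufs or Ndufv (but not Ndufaf), Sdha to Sdhd, Uqcr, Cox4i, Cox5, Cox6, Cox7 or Cox8, it is not a pseudogene, and a probe set names it alone. Complex I gave 35 members (6 core and 29 accessory subunits), complex II 4, complex III 8 and complex IV 11 ubiquitous subunits. The other 9 were the supercomplex factor Cox7a2l and 8 isoforms that belong to particular tissues or conditions. Ndufa11 and Ndufb4 had only probe sets shared with other genes and were not analysed as members, Ndufb1 was not analysed here, and 6 pseudogenes were left out. All members were above the negative controls (their median on the array) on all 24 arrays except Cox7b2 (on 0 arrays), Cox8b and Ndufa4l2 (6 each) and Cox8c (17), whose levels are read as background.

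The study measured total RNA of mouse intestinal organoids and intestine in 6 groups of 4 arrays. Fetal organoids came from intestine labelled E19 and adult organoids from adult intestine, and each kind was taken at day 3 and at day 30 of culture in ENR, the usual medium of intestinal organoids. The tissue groups were intestine labelled P0 and adult intestine. No strain, genotype or other treatment is labelled for any group, and the labels leave unclear whether the 4 replicates were separate animals, separate cultures or repeats of 1 RNA, so the p-values below measure the spread between these arrays. Organoids are cultures of the epithelium, whereas the tissue also holds muscle, vessels and immune cells.

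The chain passes electrons from NADH (complex I) or succinate (complex II) through complex III to oxygen at complex IV, and the proton gradient that results drives ATP synthase. Complex I has core subunits that carry the redox centres and accessory subunits that surround them. Several complex IV subunits have a ubiquitous form and a second form made in particular tissues or states, such as Cox7a2 and Cox7a1, the latter best known from heart and skeletal muscle. Nuclear respiratory factor 1 (NRF1), the ETS factor GABP and YY1 are known activators of these nuclear genes, and Ppargc1a encodes a coactivator that works with them.

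All levels are log2 RMA signals, in which a difference of 1 is a 2-fold difference. They are given as means ± SD of 4 arrays. A difference is given with its standard error (SE) from limma, with the spread pooled over all 24 arrays, and called when its p, adjusted by Benjamini-Hochberg over all 30701 genes of the comparison, is under 0.05. Levels of different probe sets are not compared. Separation of positive from negative control probe sets, as an area under the curve, was 0.865 to 0.922 per array, and the negative controls had medians of 3.84 to 4.61. Epithelial marker genes averaged 9.86 to 10.82 on every array, and all 7 were above the negative controls in every group. Fibroblast markers averaged 7.19 and 7.31 on fetal day 3 replicates 2 and 3, against 6.07 and 6.47 on replicates 1 and 4, and 6.84 on adult day 3 replicate 1, against 5.11 to 5.2 on the others of that group. In such mixed samples, fewer cells of a type and less RNA per cell cannot be told apart.

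Promoter windows of RefSeq (GRCm38.p6, 250 bases before to 50 after the start) were found for 53 of the 67 members. Motifs were searched on both strands, without regard to overlap, as GCGCANGCG for NRF1, CCGGAAG for ETS factors and AAGATGGC for YY1. The NRF1 letters stood in 11 of the 53 windows (20.8%), against 7.03% of the windows of 27025 genes. The ETS letters stood in 11 (20.8%, against 9.93%) and the YY1 letters in 7 (13.2%, against 3.19%). At least 1 of the 3 stood in 25 members (47.2%, against 17.8%), none of which were among the 4 isoforms with a window. The median GC content was 57.3% in members and 53.3% in all genes, and the median CpG ratio (observed over expected) 0.8 and 0.41. A match describes letters in a window, not a bound site. The windows of Ndufa1, Ndufb3, Ndufb11, Cox7a2l, Ndufa7 and Ndufv3, which had some of the larger differences below, held none of the motifs and are not shown. The 5 windows below are examples and do not stand for all members with large differences. They belong to Cox7a1 and its ubiquitous counterpart Cox7a2, which hold none of the motifs, Ndufs6 of complex I, and Sdha and Sdhd of complex II. Each reads 5′ to 3′ on the strand of the gene, and capitals mark motif matches.
Cox7a1, chr7:30183921-30184220, plus strand: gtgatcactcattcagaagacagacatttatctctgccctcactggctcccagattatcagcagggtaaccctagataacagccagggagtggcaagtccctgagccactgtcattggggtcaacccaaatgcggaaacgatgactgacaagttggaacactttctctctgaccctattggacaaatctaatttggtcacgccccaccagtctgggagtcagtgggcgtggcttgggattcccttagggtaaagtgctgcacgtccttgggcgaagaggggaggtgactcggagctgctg
Cox7a2, chr9:79759804-79760103, minus strand: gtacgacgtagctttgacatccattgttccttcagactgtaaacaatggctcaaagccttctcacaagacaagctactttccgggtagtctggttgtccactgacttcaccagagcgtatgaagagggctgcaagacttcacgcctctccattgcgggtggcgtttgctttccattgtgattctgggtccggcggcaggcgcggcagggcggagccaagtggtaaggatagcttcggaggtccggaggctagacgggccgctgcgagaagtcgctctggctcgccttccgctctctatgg
Ndufs6, chr13:73328433-73328732, minus strand: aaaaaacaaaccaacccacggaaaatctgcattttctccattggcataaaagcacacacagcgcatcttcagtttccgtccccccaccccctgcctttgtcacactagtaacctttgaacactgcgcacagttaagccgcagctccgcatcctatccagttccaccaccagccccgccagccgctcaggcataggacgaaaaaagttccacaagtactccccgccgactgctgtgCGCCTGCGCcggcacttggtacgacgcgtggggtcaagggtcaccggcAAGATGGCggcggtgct
Sdha, chr13:74350191-74350490, minus strand: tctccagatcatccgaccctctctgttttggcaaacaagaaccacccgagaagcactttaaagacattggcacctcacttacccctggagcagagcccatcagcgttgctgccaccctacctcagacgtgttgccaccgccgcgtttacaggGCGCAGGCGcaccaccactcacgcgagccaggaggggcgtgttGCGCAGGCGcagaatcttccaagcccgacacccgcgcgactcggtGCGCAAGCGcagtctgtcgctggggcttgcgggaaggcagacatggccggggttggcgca
Sdhd, chr9:50603800-50604099, minus strand: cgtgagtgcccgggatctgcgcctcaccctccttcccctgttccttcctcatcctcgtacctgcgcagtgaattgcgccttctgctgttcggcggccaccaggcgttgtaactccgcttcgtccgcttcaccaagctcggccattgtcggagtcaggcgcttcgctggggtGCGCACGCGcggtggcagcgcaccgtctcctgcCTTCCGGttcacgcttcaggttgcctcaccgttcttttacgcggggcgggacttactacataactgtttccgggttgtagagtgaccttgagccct
The Ndufs6 window held 1 NRF1 match followed by 1 YY1 match, Sdha 3 NRF1 matches, and Sdhd 1 NRF1 and 1 ETS match. Cox7a1 had a CpG ratio of 0.33, against 0.83 for Cox7a2, 0.85 for Sdha, 0.87 for Ndufs6 and 1.02 for Sdhd.

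The mean level over the 67 members was highest in adult organoids and lowest in fetal organoids. It was 8.55 ± 0.05 in fetal day 3, 8.53 ± 0.19 in fetal day 30, 8.92 ± 0.03 in adult day 3 and 8.8 ± 0.16 in adult day 30 organoids, 8.62 ± 0.03 in P0 and 8.76 ± 0.09 in adult intestine. Adult day 3 was the highest of the 6 groups for 42 members, and 1 of the fetal organoid groups was the lowest for 50 (22 at day 3 and 28 at day 30). In the order of these means (fetal day 30, fetal day 3, P0, adult intestine, adult day 30, adult day 3) each group overlapped its neighbours, while the adult day 3 arrays lay above every array of both fetal groups and both tissues. The range of a member's 6 group means had a median of 0.5, against 0.44 over all genes, so most subunits moved within a narrow band. Cox7a1 stood out with a range of 3.05, and the next were Cox6b2 (0.84), Sdhb (0.82), Ndufs6 (0.78) and Ndufa1 (0.77).

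**Figure D1:**
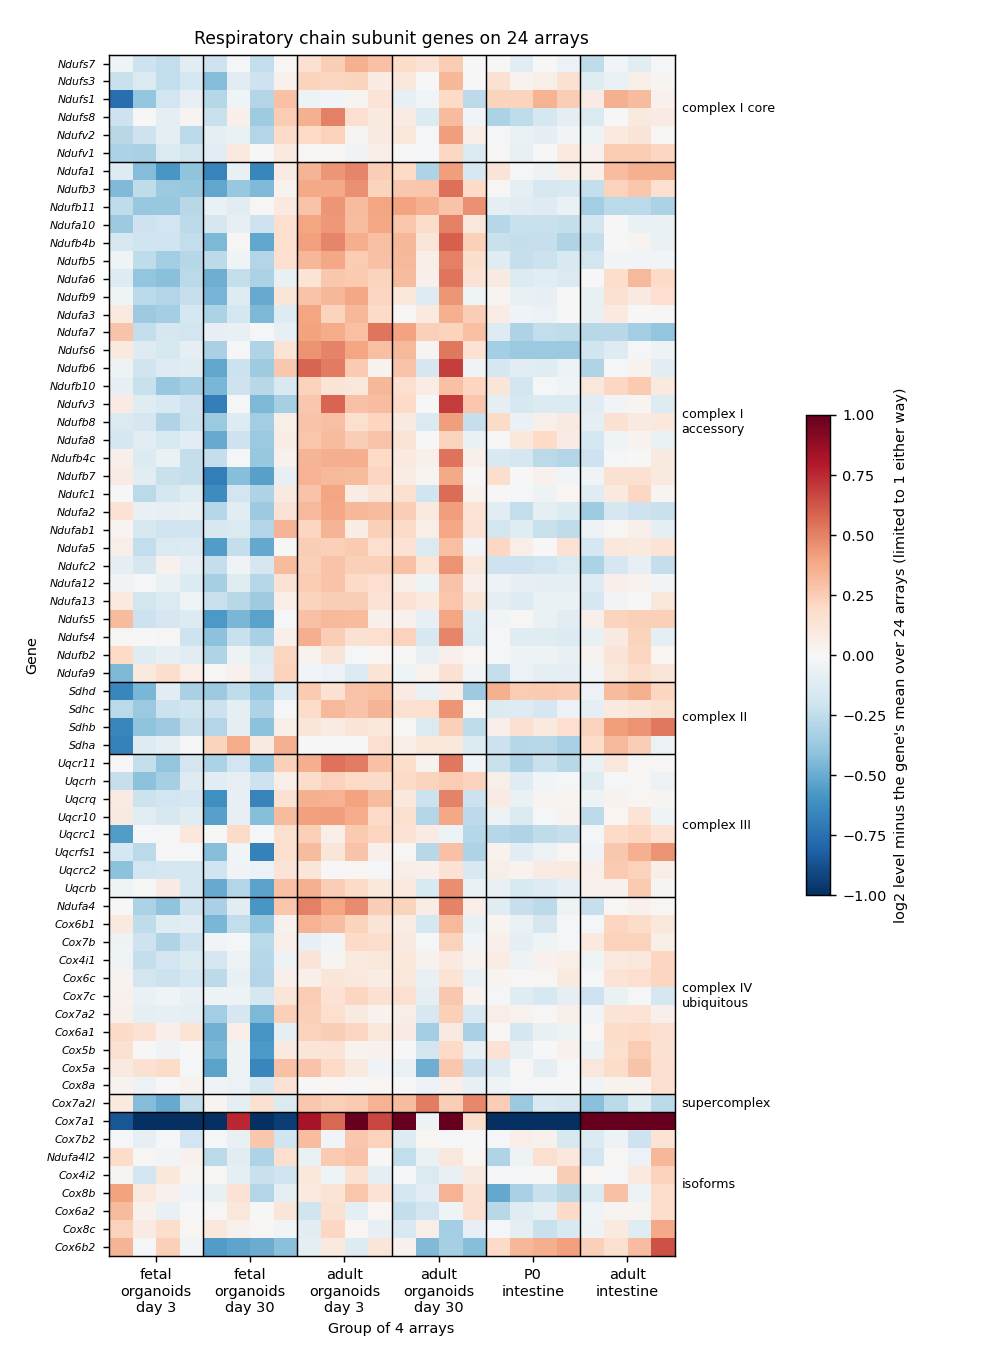
Level of each member (rows, ordered by complex and within it by the adult minus fetal difference at day 3) on each of 24 arrays (columns, 6 groups of 4 in replicate order), as the log2 level minus the gene's mean over all arrays, with the colour scale limited to 1 either way. Most rows are red on the 4 adult day 3 arrays and blue on the fetal organoid arrays, and Cox7a1 exceeds the colour scale on most arrays.

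**Figure D2:**
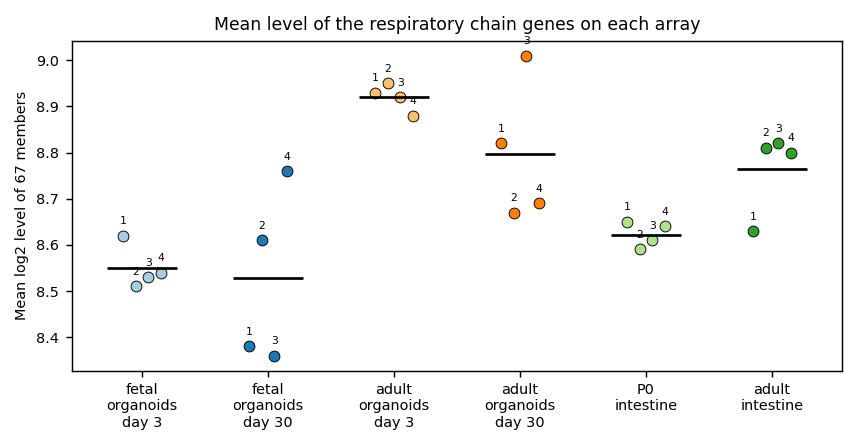
Mean log2 level of the 67 members on each array (points, numbered by replicate) with the mean of each group (line). The adult day 3 arrays lie between 8.88 and 8.95, above all fetal day 3 arrays (8.51 to 8.62), while the day 30 groups are spread more widely.

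Adult and fetal organoids at day 3 were compared first, to see how the subunits differ with the stage the cultures came from. Adult organoids had the higher level for 48 of the 67 members and the lower for 0 (71.6%, against 14.5% of all genes called higher and 10.1% lower). Among the 16966 genes past a filter on low levels, which the mostly well expressed members are better set against, 25.4% were called higher and 15.6% lower. The median member difference was 0.35 (1.28-fold), against -0.01 over all genes, and 64 of 67 differences were above 0. For 50 members no adult array overlapped a fetal array, against 13.8% of all genes with adult organoids higher. These shares describe a set chosen with results of these data known, and the set as such was not tested.

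Complex I carried the largest share of the calls. All 6 measured core subunits were higher, by 0.26 (Ndufv1, the NADH-binding subunit) to 0.42 (Ndufs7, which carries an iron-sulfur cluster). Of the accessory subunits 24 of 29 were higher, with a median of 0.45, and among them Ndufa1, Ndufb3 and Ndufb11 of the membrane arm differed most. The other 5 (Ndufa9, Ndufb2, Ndufc1, Ndufs4 and Ndufs5) were not called.

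Ndufa1 was at 10.37, 10.07, 9.92 and 10.1 in fetal and 10.84, 10.94, 10.99 and 10.75 in adult day 3 organoids. The groups did not overlap, and the difference was 0.77 (SE 0.16, adjusted p = 0.00086). Ndufb3 was at 8.67, 8.86, 8.74 and 8.73 in fetal and 9.49, 9.49, 9.57 and 9.33 in adult organoids, a difference of 0.72 (SE 0.11, adjusted p = 6.6e-05). Each adult array again lay above every fetal one. Ndufb11 was at 9.01, 8.89, 8.89 and 8.99 in fetal and 9.55, 9.71, 9.58 and 9.66 in adult organoids, a difference of 0.68 (SE 0.06, adjusted p = 5.4e-08). Its arrays lay close together within each group. Ndufa1 and Ndufb11 are X-linked, and Xist, the RNA of the inactive X chromosome, was at 9.81 to 10.32 on the fetal and 10.42 to 11.06 on the adult day 3 arrays, without overlap. Its part in their levels was not tested.

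The core subunit Ndufs1, which takes electrons onward from Ndufv1, was at 6.58, 6.95, 7.14 and 7.25 in fetal and 7.28, 7.31, 7.36 and 7.47 in adult day 3 organoids. The groups did not overlap, but fetal replicate 1 lay well below the other arrays, and the difference of 0.37 (SE 0.13, adjusted p = 0.045) was not called without it (0.24, adjusted p = 0.2). The call was lost in 8 of 15 alternatives, also without fetal replicate 2, without any 1 of the 4 adult arrays and with only the groups compared. On that same array Sdha, Sdhb, Sdhd and Uqcrc1 had their lowest fetal day 3 levels, while 44 of the 67 members had their highest. Its area under the curve was 0.892, against 0.911 to 0.922 on the other 3. The part of array quality in these values was not tested.

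In complex II, which oxidises succinate and also belongs to the citric acid cycle, 3 of 4 subunits were higher in adult day 3 organoids. Sdhd, a membrane anchor, was at 8.57, 8.77, 9.11 and 8.9 in fetal and 9.49, 9.38, 9.51 and 9.53 in adult organoids, a difference of 0.64 (SE 0.11, adjusted p = 0.00016). Sdhb, the iron-sulfur subunit, was at 8.92, 9.17, 9.21 and 9.34 in fetal and 9.69, 9.65, 9.7 and 9.68 in adult organoids, a difference of 0.52 (SE 0.11, adjusted p = 0.00088). Neither gene's groups overlapped. The other anchor gene, Sdhc, was higher by 0.54 (SE 0.08, adjusted p = 4.6e-05). Sdha, the flavoprotein that binds succinate, was not called (0.26, SE 0.11, adjusted p = 0.096).

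In complex III 6 of 8 subunits were higher. The hinge protein gene Uqcrh was at 9.99, 9.81, 9.89 and 10.09 in fetal and 10.4, 10.45, 10.42 and 10.41 in adult organoids, a difference of 0.48 (SE 0.07, adjusted p = 1.7e-05). The adult arrays were nearly level with one another, and each lay above all fetal arrays. Uqcr11 was higher by 0.63 (SE 0.12, adjusted p = 0.00043), the core protein genes Uqcrc1 (0.32, SE 0.11, adjusted p = 0.04) and Uqcrc2 (0.27, SE 0.08, adjusted p = 0.013) by less, and the call of Uqcrc1 was lost without fetal replicate 1 or adult replicate 1, 3 or 4, that of Uqcrc2 without fetal replicate 1 (adjusted p = 0.051). Uqcrfs1, the Rieske iron-sulfur protein gene, was not called (0.31, SE 0.15, adjusted p = 0.15).

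Complex IV gave fewer calls, 6 of its 11 ubiquitous subunits, with a median difference of 0.22. Ndufa4, once placed in complex I and now counted with complex IV, differed most (0.64, SE 0.14, adjusted p = 0.0013), Cox6b1 by 0.35 (adjusted p = 0.019) and Cox4i1, the largest nuclear subunit of complex IV, by 0.24 (SE 0.07, adjusted p = 0.012). Cox5a (0.02, adjusted p = 0.94), Cox5b (0.05, adjusted p = 0.8), Cox6a1 (0.07, adjusted p = 0.73), Cox7a2 (0.19, adjusted p = 0.24) and Cox8a (0.01, adjusted p = 0.97) were not called. Cox6b1 lost its call without fetal replicate 2 or adult replicate 1 or 2 (adjusted p up to 0.19 over all alternatives), and Cox4i1 in 2 of 15 alternatives, with only the groups compared and with fetal arrays 1 and 4 only. A test of whether complexes differ from one another was not made. Cox7a2l, which helps complexes III and IV associate into supercomplexes, was at 9.1, 8.57, 8.5 and 8.76 in fetal and 9.27, 9.24, 9.26 and 9.35 in adult organoids. The highest fetal array lay just under the lowest adult one, and the difference was 0.55 (SE 0.12, adjusted p = 0.0017).

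Of the 8 isoforms only Cox7a1 was called among those above background (Cox7b2, also called, lay below the negative controls on all arrays). Cox7a1 was at 8.62, 7.97, 7.97 and 8.11 in fetal and 10.3, 10.05, 10.82 and 10.14 in adult day 3 organoids. The groups lay far apart, and the difference of 2.16 (SE 0.4, adjusted p = 0.00034) is 4.47-fold. It ranked 69th of all 30701 genes when differences were ordered from the highest in adult organoids down, with the sign kept. Cox4i2, Cox6a2 and Cox6b2 differed by 0.04, -0.1 and -0.14 (adjusted p from 0.44 to 0.81).

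Markers of other cell types moved with this comparison. Fibroblast markers averaged 6.07 to 7.31 in fetal and 5.11 to 6.84 in adult day 3 organoids, with 5 of 6 listed genes measured, and the decorin gene Dcn was at 6.01 to 7.42 in fetal and 4.08 to 8.88 in adult organoids. Cycling markers averaged 8.32 to 8.92 and 8.87 to 9.26, and enterocyte markers 9.92 to 10.52 and 10.35 to 10.79. Leukocyte markers averaged 4.91 to 5.17 in fetal and 4.27 to 4.53 in adult organoids, endothelial markers 4.36 to 4.7 and 3.89 to 4.02, pericyte markers 4.93 to 5.24 and 4.57 to 4.71, and smooth muscle markers 5.14 to 5.31 and 4.75 to 4.93, with no overlap in these 4 lists. Markers of skeletal and cardiac muscle averaged 5.33 to 5.62 and 5.36 to 5.44. With only fetal arrays 1 and 4, 27 members were called higher and the median difference was 0.34, when 9.9% of all genes were called higher. These 2 arrays held less fibroblast signal (6.07 and 6.47) than fetal arrays 2 and 3. It was still above that of adult replicates 2 to 4 (5.11 to 5.2), so this subset does not separate stage from fibroblast signal. The part of these cell types in the result was not tested.

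**Figure D3:**
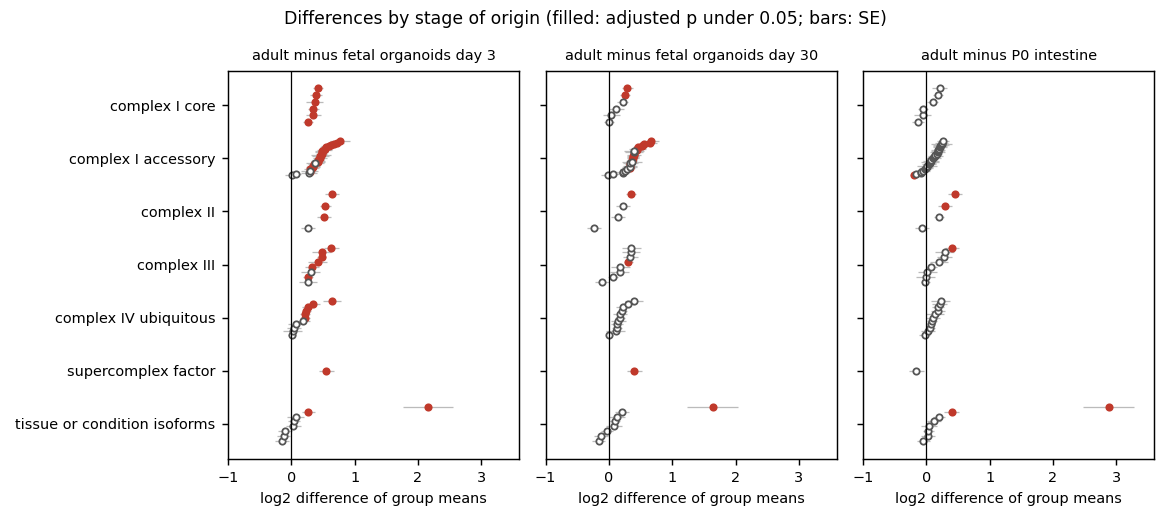
Difference of group means (log2, bars are SE) for each member, by complex, for adult against fetal organoids at both days and adult against P0 intestine; filled points were called at an adjusted p under 0.05. At day 3 nearly all members lie right of 0, with Cox7a1 at 2.16, while in intestine most lie near 0 and Cox7a1 is at 2.88.

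At day 30 the same stages were compared on other arrays. Adult organoids had the higher level for 24 of 67 members and the lower for 0 (35.8%, against 6.8% of all genes called higher and 2.17% lower). Among genes past the filter 13.2% were called higher and 4.51% lower. The median difference was 0.28, against 0.02 over all genes, and 60 of 67 differences were above 0. Groups did not overlap for 14 members, against 7.93% of all genes. Of the calls, 23 were also made at day 3, which is 47.9% of the members called at day 3 and 95.8% of those called at day 30 (36.8% and 78.3% over all genes). Ndufs5, an accessory subunit of the intermembrane space side, was called at day 30 alone (0.45, SE 0.13, adjusted p = 0.026).

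Accessory subunits of complex I made up 18 of the 24 calls, with a median of 0.38 over the 29. Ndufv3 (0.66, SE 0.13, adjusted p = 0.0017), Ndufb3 (0.65, SE 0.11, adjusted p = 0.00089), Ndufb7 (0.56, SE 0.11, adjusted p = 0.0017), Ndufa6 (0.54, SE 0.1, adjusted p = 0.0016) and Ndufb4b (0.52, SE 0.12, adjusted p = 0.0071) had the largest. The core subunits Ndufs3 (0.29, adjusted p = 0.04) and Ndufs7 (0.26, adjusted p = 0.04) were called as well. So were Sdhc (0.35, adjusted p = 0.0086), Uqcrh (0.31, adjusted p = 0.0051) and Cox7a2l (0.4, adjusted p = 0.039). The call of Cox7a2l was lost without fetal or adult replicate 1, 2 or 4 (adjusted p up to 0.11). Of the ubiquitous complex IV subunits 0 of 11 were called, with differences of 0.01 to 0.4 and 4 at an unadjusted p under 0.05 in limma's test. Over all members, 40 were called without fetal replicate 4, and 15 without fetal or adult replicate 1 or 3. With the spread taken from these groups alone 8 were called, when 4% of all genes were called higher, and Ndufv3, Ndufb7, Ndufb4b and Sdhc were not among them (adjusted p of 0.068, 0.055, 0.13 and 0.095).

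Ndufb11 at day 30 was at 9.2, 9.16, 9.28 and 9.36 in fetal and 9.67, 9.62, 9.55 and 9.72 in adult organoids, a difference of 0.39 (SE 0.06, adjusted p = 0.00031). Its groups stayed apart with a narrow spread. Cox7a1 was at 7.98, 10.23, 7.58 and 8.53 in fetal and 10.6, 9.42, 11.22 and 9.65 in adult organoids, a difference of 1.64 (SE 0.4, adjusted p = 0.011). Fetal replicate 2 lay within the adult range. The call was lost without fetal replicate 3 (1.31, adjusted p = 0.052) and with the spread taken from these groups alone (adjusted p = 0.17).

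Day 30 arrays of the same group differed more in these genes than day 3 arrays did. The median SD of members was 0.21 in fetal and 0.18 in adult day 30 organoids, against 0.11 and 0.08 at day 3, while over all genes it was 0.14 and 0.12 at day 30 and 0.16 and 0.12 at day 3. Fetal replicate 4 held the highest level of its group for 54 members and adult replicate 3 for 55. These arrays also had the highest mean of their group for the mitochondrial ribosome (7.72 and 7.94), ATP synthase (9.29 and 9.48) and cycling markers (9.39 and 9.19). On the other arrays the cycling markers averaged 8.6 to 8.99 in fetal and 8.72 to 9.05 in adult organoids. Enterocyte markers averaged 10.52 on adult replicate 3, against 9.53 to 9.86 on the other adult arrays, and glycolysis genes 8.82, against 7.82 to 8.25. In fetal organoids replicate 2 was the highest for both lists (10.52 and 8.7), and replicate 4 was at 10.12 and 8.22. Their part in the spread was not tested.

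The change from day 3 to day 30 was then taken within each kind of organoid. In fetal organoids 3 members rose and 3 fell (4.48% each way, against 6.77% and 8.76% of all genes, and 12.8% and 13.7% of genes past the filter), and the median change was -0.01. Sdha rose, from 8.4, 8.95, 8.99 and 9.06 at day 3 to 9.3, 9.45, 9.17 and 9.43 at day 30, by 0.49 (SE 0.11, adjusted p = 0.0042), and by 0.34 (adjusted p = 0.013) without day 3 replicate 1. No array of the 2 times overlapped. Ndufb11 rose by 0.3 (SE 0.06, adjusted p = 0.0013) and Ndufv1 by 0.26 (SE 0.08, adjusted p = 0.021). Xist was at 9.81 to 10.32 at day 3 and 10.76 to 11.29 at day 30, and its part in the level of the X-linked Ndufb11 was not tested. The call of Ndufv1 was lost in 6 of 15 alternatives, among them without day 3 replicate 1 or 2 and without day 30 replicate 2 or 4 (adjusted p up to 0.12). With the spread taken from these groups alone, 0 members were called higher, Sdha at an adjusted p of 0.075.

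Cox6b2, the testis-type form of Cox6b, fell most, from 7.23, 6.87, 7.13 and 6.86 to 6.33, 6.36, 6.39 and 6.47 (-0.64, SE 0.11, adjusted p = 0.00037). All day 30 arrays lay below all day 3 arrays. Cox6a1 fell by 0.4 (SE 0.12, adjusted p = 0.02) and Ndufb7 by 0.31 (SE 0.11, adjusted p = 0.049), and both calls were lost without day 30 replicate 1 or 3, that of Ndufb7 in 11 of 15 alternatives. Without day 30 replicate 4, 8 members were called lower. Fibroblast markers averaged 6.07 to 7.31 at day 3 and 5.03 to 5.49 at day 30. At day 30 leukocyte markers averaged 4.18 to 4.26, endothelial markers 3.78 to 3.87, pericyte markers 4.48 to 4.65 and smooth muscle markers 4.73 to 4.78, each below its whole range at day 3 given above. Their part in the changes was not tested.

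In adult organoids 0 members were called either way between day 3 and day 30 (0.0261% of all genes were called higher and 0.0228% lower, and 0.0589% and 0.0354% of those past the filter). The median change was -0.11, 60 of 67 changes were below 0, and 9 members reached an unadjusted p under 0.05 in limma's test. The 8 complex III subunits had a median of -0.24. Sdhd changed by -0.32 (SE 0.11, adjusted p = 0.38) and Ndufa1 by -0.34 (SE 0.16, adjusted p = 0.56).

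The difference between the culture changes of fetal and adult organoids, which is also the difference between the stage effects at day 3 and day 30, was called for 0 members (1.02% of all genes were called higher and 1.97% lower, and 2.23% and 3.65% of those past the filter), with 9 at an unadjusted p under 0.05 in limma's test and 1 called without fetal day 3 replicate 1. So the smaller count at day 30 than at day 3 is not shown to be a smaller stage effect. The 4 complex II subunits had a median of 0.4 in this difference, with Sdha at 0.49 (SE 0.16, adjusted p = 0.11), Sdhd at 0.42 (SE 0.16, adjusted p = 0.18), Sdhb at 0.37 (SE 0.15, adjusted p = 0.24) and Sdhc at 0.19 (SE 0.12, adjusted p = 0.54). Ndufb11 came nearest to the threshold (0.29, SE 0.09, adjusted p = 0.074).

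Adult and P0 intestine were compared to see whether tissue differs with age in the same genes. Adult intestine had the higher level for 5 of 67 members and the lower for 1. These were 7.46% and 1.49%, against 15% and 12.2% of all genes and 18.7% and 18.3% of those past the filter. With the pooled spread, fewer members than genes in general were thus called. With only the groups compared, 9 of 67 members were called higher, when 14% of all genes were. How the share of higher members stands to that of all genes therefore depends on the arrays that give the spread. Groups did not overlap for 16 members with adult intestine higher and for 1 with it lower. Without adult replicate 1, 9 were called higher, and without replicate 2 or 4, 3. The median difference was 0.11, against 0.08 over all genes. Cox7a1 was at 8.4, 8.28, 8.3 and 8.36 in P0 and 10.82, 11.4, 11.29 and 11.35 in adult intestine, and the difference of 2.88 (SE 0.4, adjusted p = 6.3e-06) is 7.36-fold. The groups lay more than 2 log2 units apart. Cox7a2, the ubiquitous counterpart, was at 11.71 ± 0.03 and 11.73 ± 0.08 (0.03, SE 0.11, adjusted p = 0.87).

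Sdha was at 8.86, 8.79, 8.8 and 8.75 in P0 and 9.26, 9.4, 9.32 and 9.02 in adult intestine, a difference of 0.45 (SE 0.11, adjusted p = 0.0043). Each adult array lay above every P0 array. Uqcrc1 (0.4, SE 0.11, adjusted p = 0.0085) and Sdhb (0.29, SE 0.11, adjusted p = 0.047) were also higher, though the call of Sdhb was lost in 11 of 16 alternatives, and with arrays centred on their median neither these 2 nor Sdha were called (adjusted p of 0.061, 0.19 and 0.05). Cox8b was called too, at background. Ndufb11 went the other way, at 9.17, 9.16, 9.14 and 9.2 in P0 and 8.92, 9, 9 and 8.95 in adult intestine (-0.2, SE 0.06, adjusted p = 0.016). Xist was at 10.6 and 10.53 on P0 replicates 1 and 4, 3.81 and 4.01 on replicates 2 and 3, and 3.77 to 4.24 in adult intestine. The 4 P0 arrays were therefore not all repeats of 1 RNA. With only P0 replicates 2 and 3 the Ndufb11 difference was -0.18 (adjusted p = 0.11). The call was also lost with only P0 replicates 1 and 4, and the part of Xist was not tested.

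Muscle markers are given here because Cox7a1 is best known from muscle. Smooth muscle markers, all 8 above the negative controls, averaged 8.01 to 8.36 in P0 and 6.42 to 7.41 in adult intestine, where Cox7a1 was higher. Those of skeletal and cardiac muscle averaged 5.31 to 5.49 and 5.22 to 5.57, with 4 of 7 measured genes above the negative controls in both. In adult organoids, where Cox7a1 was at 9.42 to 11.22, smooth muscle markers averaged 4.75 to 4.93. Fibroblast markers averaged 7.88 to 8.7 in P0 and 6.78 to 7.18 in adult intestine, leukocyte markers 4.89 to 4.93 and 5.69 to 6.04, and endothelial markers 6.72 to 7.28 and 5.27 to 5.7. Epithelial markers averaged 9.86 to 10.01 in P0 and 10.49 to 10.82 in adult intestine, without overlap, and adipocyte markers 4.55 to 4.69 and 4.17 to 5.19. Their part in the tissue values was not tested.

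**Figure D4:**
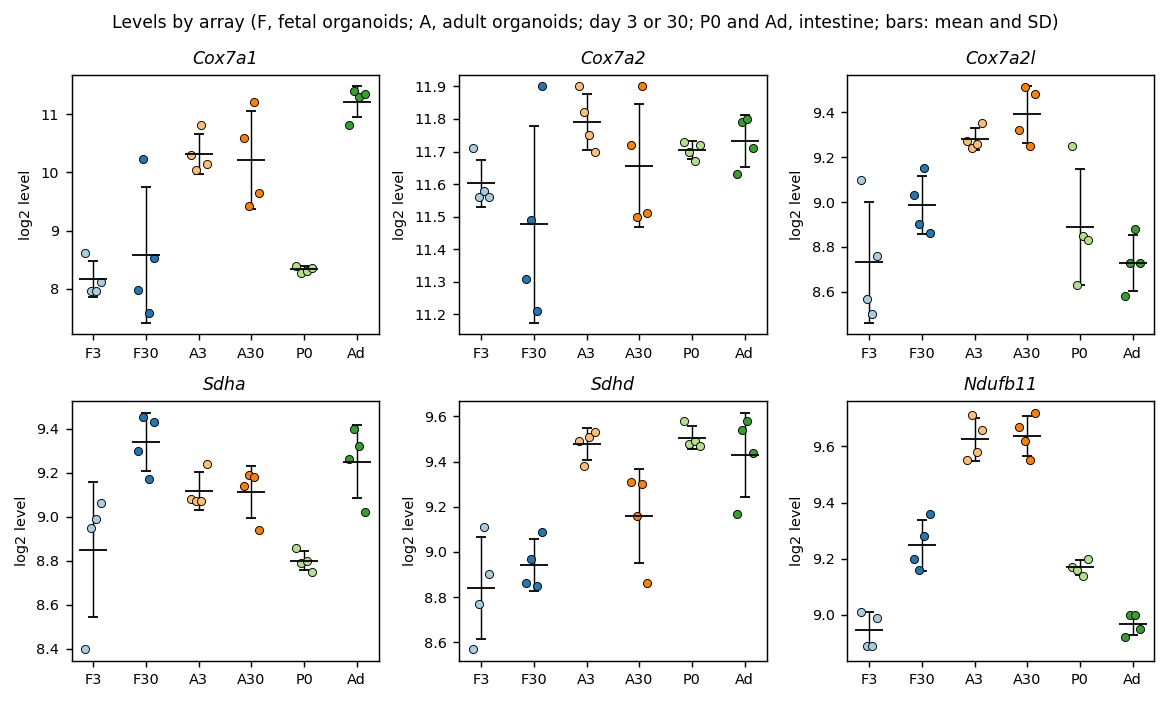
Log2 level of 6 members on each array (points) with the mean and SD of each group (bars); F3 and F30 are fetal and A3 and A30 adult organoids at day 3 and 30, P0 and Ad are P0 and adult intestine, and each panel has its own axis. Cox7a1 is near 8.2 to 8.6 in the means of the fetal organoid and P0 groups and above 10 in all 3 adult groups, while the Cox7a2 means lie between 11.48 and 11.79.

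Day 3 organoids were then set against tissue, adult against adult and fetal (E19) against P0, which differ in age as well. These comparisons share arrays with those above and are not independent of them. Adult day 3 organoids were higher than adult intestine for 22 of 67 members and lower for 2 (32.8% and 2.99%, against 21.9% and 13.5% of all genes). Among genes past the filter 36.6% were higher and 20.2% lower, so the share of members called higher is about that of expressed genes in general. Ndufa7, an accessory subunit, was at 7.89, 7.86, 7.79 and 8.02 in organoids and 7.21, 7.21, 7.14 and 7.09 in tissue, a difference of 0.73 (SE 0.09, adjusted p = 4.4e-07). The groups were well apart. Ndufb11 (0.66, SE 0.06, adjusted p = 8.9e-09), Ndufa2 (0.58, SE 0.09, adjusted p = 1.9e-05), Cox7a2l (0.55, SE 0.12, adjusted p = 8e-04) Ndufs6 (0.51, SE 0.1, adjusted p = 3e-04) and Ndufb4b (0.46, adjusted p = 0.0036) followed. Of the 22 calls, 15 were accessory subunits of complex I. Xist differed between these groups (10.42 to 11.06 and 3.77 to 4.24), and its part in the level of Ndufb11 was not tested. Cycling markers averaged 8.87 to 9.26 in organoids and 7.29 to 8.15 in tissue, enterocyte markers 10.35 to 10.79 and 11.16 to 11.52, leukocyte markers 4.27 to 4.53 and 5.69 to 6.04, and smooth muscle markers 4.75 to 4.93 and 6.42 to 7.41. None of these overlapped, and their part was not tested.

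Cox6b2 (-0.34, SE 0.11, adjusted p = 0.02) and Sdhb (-0.3, SE 0.11, adjusted p = 0.032) were lower in adult organoids than in adult intestine. Both calls were lost without adult organoid replicate 1 or 3 or intestine replicate 4, and that of Sdhb with each other array left out except intestine replicate 1. Cox7a1 was at 11.21 ± 0.27 in adult intestine and 10.33 ± 0.34 in adult day 3 organoids and was not called (-0.89, SE 0.4, adjusted p = 0.094).

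Fetal day 3 organoids were lower than P0 intestine for 13 of 67 members and higher for 3 (19.4% and 4.48%, against 13.8% and 30.5% of all genes). Among genes past the filter 20% were lower and 35.4% higher. With centred arrays 22 members were lower and 1 higher, when 5139 of all 30701 genes were lower and 6097 higher, so how the members' share stands to that of other genes depends on the scaling. The median difference was -0.06, while that of all genes was 0.14. Sdhd was at 9.58, 9.48, 9.49 and 9.47 in P0 intestine, above all fetal day 3 arrays, and the difference was -0.67 (SE 0.11, adjusted p = 4.6e-05). Ndufs1 was at 7.56, 7.56, 7.68 and 7.58 in P0 intestine, a difference of -0.61 (SE 0.13, adjusted p = 0.00083), and -0.48 (adjusted p = 0.0045) without fetal replicate 1. Sdhb was at 9.62, 9.73, 9.67 and 9.74, a difference of -0.53 (SE 0.11, adjusted p = 0.00042). The P0 arrays were close to one another for all 3 genes. Cycling markers averaged 8.32 to 8.92 in fetal organoids and 6.99 to 7.7 in P0 intestine, enterocyte markers 9.92 to 10.52 and 11.3 to 11.38, endothelial markers 4.36 to 4.7 and 6.72 to 7.28, and smooth muscle markers 5.14 to 5.31 and 8.01 to 8.36, and their part was not tested.

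Ndufa1 (-0.42, SE 0.16, adjusted p = 0.036), Uqcrc2 (-0.31, SE 0.08, adjusted p = 0.0032) and Ndufs3 (-0.3, SE 0.09, adjusted p = 0.0091) were next. The call of Ndufa1 was lost without fetal replicate 2, 3 or 4 or P0 replicate 1, 2 or 4. Ndufs6 was the only one of the 3 higher members above background, at 9.61 ± 0.12 in fetal organoids and 9.32 ± 0.01 in P0 intestine (0.29, SE 0.1, adjusted p = 0.025), and its call was lost without fetal replicate 1. Without fetal replicate 3, 8 members were called lower.

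Whether the adult minus fetal difference at day 3 exceeded the adult minus P0 difference in tissue was tested directly, in a comparison added after the data were seen. It was larger in organoids for 15 members and smaller for 0 (22.4%, against 13.6% of all genes called higher and 13% lower, and 22.4% and 16% of those past the filter). Without fetal day 3 replicate 1, 2 members were smaller. The members had a median of 0.24, against -0.08 over all genes, and centred arrays gave medians of 0.36 and 0.04. The count was 32 with centred arrays (17.7% of all genes) and 27 with only the groups compared (14.1% of all genes), so it depends on the scaling and on the arrays that give the spread. Ndufb11 led (0.88, SE 0.09, adjusted p = 1.3e-07), as its stage difference was positive in organoids and negative in tissue. Sdhd (0.72, SE 0.16, adjusted p = 0.0016), Cox7a2l (0.71, SE 0.17, adjusted p = 0.0038), Ndufa8 (0.58, SE 0.13, adjusted p = 0.0021), Ndufa7 (0.57, SE 0.12, adjusted p = 0.0016) and Ndufs3 (0.51, SE 0.12, adjusted p = 0.0037) followed. For Cox7a1 the difference between organoids and tissue was not called (-0.72, SE 0.57, adjusted p = 0.36). The tissue groups differ in smooth muscle and fibroblast signal as given above. Ndufb11 is X-linked, and Xist differed between adult organoids and adult intestine and among the P0 arrays, also as given above. The part of these differences was not tested.

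Other mitochondrial genes were counted from lists of the pathway's members. At day 3 adult organoids were higher for 11 of 16 ATP synthase genes, 10 of 14 complex I assembly factors, 6 of 10 complex II and III assembly factors, 4 of 16 complex IV assembly factors, 5 of 13 citric acid cycle genes and 41 of 75 genes of the mitochondrial ribosome, and lower for 0 of each. Of all genes 14.5% were higher, and of those past the filter 25.4%, and the complex IV assembly factors were at 25%. Their median differences were 0.36, 0.47, 0.44, 0.11, 0.21 and 0.32. Of 12 glycolysis genes 0 were higher and 1 was lower (median -0.04). At day 30 the counts higher were 5, 6, 5, 6, 1 and 32 for the mitochondrial lists in the same order and 0 for glycolysis (6.8% of all genes, 13.2% of those past the filter), and the assembly factor gene Foxred1 was lower.

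Against adult intestine, adult day 3 organoids were higher for 71 of 75 genes of the mitochondrial ribosome (median 0.67) and 11 of 14 complex I assembly factors (median 0.81), against 21.9% of all genes and 36.6% of those past the filter. Of the citric acid cycle genes 4 were higher and 4 lower, with Cs, which encodes citrate synthase, at -0.93 (SE 0.14, adjusted p = 1.3e-05). Fetal day 3 organoids were higher than P0 intestine for 55 of 75 mitochondrial ribosome genes (median 0.42) and 6 of 14 complex I assembly factors (median 0.19). Of all genes 30.5% were higher there, and of those past the filter 35.4%. In tissue, adult minus P0, 4 of 16 ATP synthase genes were higher (25%) and 0 lower. Of the 75 mitochondrial ribosome genes 15 were higher (20%) and 8 lower. Of all genes 15% were higher and 12.2% lower, and of those past the filter 18.7% and 18.3%.

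Among 12 measured regulators of mitochondrial biogenesis, 7 were higher in adult than in fetal day 3 organoids and 0 lower (58.3%, against 14.5% of all genes and 25.4% of those past the filter). Ppargc1a was at 6.42, 5.96, 5.8 and 6.88 in fetal and 7.38, 7.18, 7.68 and 7.4 in adult organoids, a difference of 1.15 (SE 0.18, adjusted p = 4.3e-05). The groups did not overlap. Tfam, which packages mitochondrial DNA and helps to start its transcription, was at 7.1, 7.41, 7.22 and 7.52 in fetal and 8.03, 8.38, 7.92 and 8.22 in adult organoids. The difference was 0.82 (SE 0.1, adjusted p = 3.1e-06). The others were Ppara (0.94), Tfb2m (0.73), Ppargc1b (0.52), Polrmt (0.33) and Nrf1 (0.3). At day 30 Tfam (0.49, SE 0.1, adjusted p = 0.0029) and Ppargc1b (0.4, SE 0.11, adjusted p = 0.016) were higher.

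In fetal organoids 6 of these regulators rose between day 3 and day 30 (50%, against 6.77% of all genes and 12.8% of those past the filter), Ppargc1a by 0.89 (SE 0.18, adjusted p = 0.001) and Tfam by 0.45 (SE 0.1, adjusted p = 0.0033) among them, while 3 respiratory chain members rose and 3 fell. The fetal change exceeded the adult one for Polrmt (0.35, adjusted p = 0.03) and Nrf1 (0.32, adjusted p = 0.047), though not for Ppargc1a (0.75, adjusted p = 0.12). In tissue Ppargc1a was at 8.05, 8.04, 7.75 and 8.26 in P0 and 8.94, 9.43, 9.47 and 9.1 in adult intestine. Adult intestine thus had the higher level (1.21, SE 0.18, adjusted p = 1.1e-05). Compared with tissue, adult day 3 organoids were lower in Ppargc1a (-1.83, SE 0.18, adjusted p = 1.5e-08) and higher in Tfam (1.28, SE 0.1, adjusted p = 7.2e-10). Fetal day 3 organoids were likewise called lower in Ppargc1a and higher in Tfam than P0 intestine.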

How the data were processed

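Total RNA was labelled with biotin and hybridised to 24 Affymetrix arrays, per the labels' protocols. The values are deposited on a log2 scale and were made by the authors with RMA in Affymetrix Expression Console, per the submitters' processing notes. The genome build was not given in the sources used here. RMA scales all arrays to 1 distribution, so a shift shared by all genes would not show.

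The table held 72688 probe sets, 6732 of them controls. Of 32750 clusters with a symbol, 31258 named 1 gene and 1492 several (left out). The cluster with the highest mean stood for a gene, which gave 30701 genes; each of the 67 members had 1 cluster. Many members have processed pseudogenes, and the cluster of Ndufs6 also lists the pseudogene Ndufs6b and those of Ndufb4b and Ndufb4c may take up RNA of Ndufb4, so their levels are uncertain. Symbols came from the platform annotation, with 2094 clusters updated through RefSeq (GRCm38.p6).

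Group means were estimated for the 6 groups together, using limma 3.58.1 (R 4.3.3; 18 residual and 4.25 prior degrees of freedom), and compared by two-sided tests in 8 planned comparisons and 1 added one. The fit was tested on simulated data. Python 3.11.15, pandas 2.3.3, numpy 2.4.6 and matplotlib 3.10.9 were used for the rest. Precision is limited by the number of arrays.

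Named members are up to 6 called rises and 6 called falls of each comparison, a fixed panel of 29, and members called against the majority; the panel is given mainly at day 3 and elsewhere where called, and the genes shown by array were picked from these after their values were seen. Members, lists and tests were chosen with earlier results of these data known. Of 13 regulators 12 were measured; genes encoded in mitochondrial DNA were not analysed here. Alternatives were the mean of a gene's clusters, a filter on low levels (above the array's median on at least 4 arrays, 16966 genes), a trended and robust prior, only the groups compared, centred arrays, a replicate block, fetal day 3 replicates 1 and 4 only, P0 replicates 1 and 4 only, each array left out in turn, and, added after the data were seen, P0 replicates 2 and 3 only.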

Additional observations from a re-analysis of the deposited data

Results flagged for a closer look

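Of 78 sets of 4 arrays examined for an array far from the others (the member mean and 12 genes in each of 6 groups, and chance flags about 5% of such sets), 3 held one. The member mean of adult intestine replicate 1 was 8.63, against 8.8 to 8.82 on the other adult intestine arrays, and this array held the lowest level of its group for 53 of 67 members. Its area under the curve was 0.865, the lowest of the 24 arrays. Without it, 9 members rather than 5 were called higher in adult than in P0 intestine. Sdha on adult day 3 organoid replicate 4 was 9.24, against 9.07 to 9.08 on the others. Ndufa7 on fetal day 3 organoid replicate 1 was 7.77, against 7.25 to 7.32 on the others.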

How the results depend on the processing

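No named member reversed direction. Of 70 pairs of a named member and a comparison in which it was called, 35 kept the call in all alternatives run and 35 lost it in at least 1. With only the groups compared, the members called were 0 higher and 1 lower in the fetal culture change, 8 higher in adult minus fetal organoids at day 30, 9 higher in adult minus P0 intestine, and 27 higher and 1 lower in the difference between organoids and intestine. With centred arrays they were 7 higher and 1 lower in the fetal culture change, 1 higher in the culture change difference, 2 higher in adult minus P0 intestine, 1 lower in adult organoids minus intestine, 1 higher and 22 lower in fetal organoids minus P0 intestine, and 32 higher in the difference between organoids and intestine. Centring moved the percentage of higher genes among all calls from 43.6% to 65.6%, from 53.3% to 33.3%, from 34% to 44.9%, from 55.2% to 40.1%, from 68.9% to 54.3% and from 51.2% to 68% in the fetal culture change, the adult culture change, their difference, adult minus P0 intestine, fetal organoids minus P0 intestine and the difference between organoids and intestine. The filter left 1 member higher in fetal organoids minus P0 intestine. With fetal day 3 replicates 1 and 4 only, 27 were higher in adult minus fetal organoids at day 3 and 6 lower in fetal organoids minus P0 intestine. With P0 replicates 1 and 4 only, 3 were higher and 0 lower in adult minus P0 intestine and 1 higher in fetal organoids minus P0 intestine. With P0 replicates 2 and 3 only, these were 3 and 0 and 1, with 4 lower in the last.

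Leaving out 1 array at a time gave 2 to 4 higher and 1 to 8 lower in the fetal culture change (1 without day 30 replicate 1 or 3, 8 without replicate 4), 0 to 1 higher in the culture change difference (1 without fetal day 3 replicate 1), 37 to 46 higher in adult minus fetal organoids at day 3, and 15 to 40 higher at day 30 (15 without fetal or adult replicate 1 or 3, 40 without fetal replicate 4). It gave 3 to 9 higher in adult minus P0 intestine (3 without adult replicate 2 or 4, 9 without replicate 1), 17 to 24 higher and 0 to 3 lower in adult organoids minus intestine, 2 to 3 higher and 8 to 14 lower in fetal organoids minus P0 intestine, and 13 to 18 higher and 0 to 2 lower in the difference between organoids and intestine (2 without fetal day 3 replicate 1). The cause was not tested.

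Deviations of same-numbered arrays from their group means had correlations of -0.306 to 0.296, and those of other-numbered arrays -0.419 to 0.455. In 2 pairs of groups the highest same-number value exceeded all other-number ones. It was 0.249 against 0.171 for fetal organoids at day 30 and day 3, and 0.296 against 0.137 for adult and P0 intestine. With 4 arrays a group, these values cannot decide whether the numbers pair the arrays. With a replicate block 43 members were called higher at day 3, 21 at day 30 and 4 in intestine, and no count moved by over 1.5 times.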

Other observations

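A pair of genes of the rule were measured only through probe sets that name several genes. The probe set of Ndufa11 and its pseudogene Ndufa11b was at 7.83 ± 0.23 in fetal and 8.15 ± 0.09 in adult day 3 organoids, 7.67 ± 0.22 and 7.88 ± 0.13 at day 30, and 8 ± 0.02 in P0 and 8.17 ± 0.13 in adult intestine. At day 3 fetal replicate 1 (8.17) lay within the adult range of 8.02 to 8.21. The probe set of Ndufb4 and Gm3244 was at 6.99 ± 0.07 and 7.44 ± 0.06 at day 3, 7.04 ± 0.17 and 7.38 ± 0.15 at day 30, and 6.94 ± 0.04 and 7.11 ± 0.08 in intestine, and its fetal and adult arrays did not overlap at either day. Neither was part of any test.

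The mean of the complex II subunits was 8.33 on fetal day 3 replicate 1 and 8.55 to 8.7 on replicates 2 to 4. That of the core complex I subunits was 8 on replicate 1 and 8.1 to 8.18 on the others. The mean of the accessory complex I subunits was instead 8.92 on replicate 1 and 8.76 to 8.77 on the others. Subunits thus ranked this array differently, also within complex I. The cause was not tested.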
